A study of Mus musculus with 6 samples.

Results

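The genes described here encode 10 proteins that hepatocytes secrete into plasma without need of an inflammatory stimulus: the carriers Alb, Gc and Rbp4, the fetuins Ahsg and Fetub, the inter-alpha-inhibitor light chain precursor Ambp and the heavy chains Itih1, Itih2, Itih3 and Itih4. They were taken by symbol from the deposited table, which held all 10 among its 12366 genes, and each of the 10 was among the 9355 genes tested. The libraries came from liver of male C57BL/6 mice kept on chow and fasted for 48 h at the age of 22 weeks, either wild type (WT, 3 libraries) or Acss2-/- (Acss2-KO, 3 libraries). Every library was from fasted animals, so the comparison holds no fed group. They are called WT1 to WT3 and KO1 to KO3 here, after genotype and replicate number. The labels do not say how the allele was made or in which cells Acss2 is missing. Nor do they tie a library to 1 animal, and p-values therefore reflect only how far libraries lie apart, which may be technical.

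Albumin is the most abundant protein of plasma and carries fatty acids, bilirubin and many other ligands. Gc, the vitamin D-binding protein, belongs to the same gene family, and Rbp4 carries retinol out of the liver in a complex with transthyretin (Ttr). Ahsg and Fetub are fetuins of the cystatin superfamily, which bind calcium phosphate (Ahsg) or inhibit the protease ovastacin (Fetub). Ambp is cut into α1-microglobulin, a heme-binding lipocalin, and bikunin, a protease inhibitor. The chondroitin sulfate chain of bikunin is linked to the heavy chains Itih1, Itih2 and Itih3, which are passed on to hyaluronan in matrix. Itih4 lacks that link and circulates on its own. Many of these genes are known targets of the hepatocyte factors HNF4α, C/EBP and the PAR bZip proteins, of which Dbp was named for its site in the albumin promoter.

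The 250 bases before the annotated start of 3 members are shown: Alb, whose promoter is a known target of liver factors, its relative Gc, which passed the test between the genotypes while Alb did not, and Itih4, for a window of another family. The sequences are from RefSeq (GRCm38.p6), 5′ to 3′ on the strand of the gene. Capitals mark matches on either strand to TTNNGNAA (C/EBP and PAR bZip), CCAAT or TATAAA.
Alb (chr5:90460620-90460869, plus strand): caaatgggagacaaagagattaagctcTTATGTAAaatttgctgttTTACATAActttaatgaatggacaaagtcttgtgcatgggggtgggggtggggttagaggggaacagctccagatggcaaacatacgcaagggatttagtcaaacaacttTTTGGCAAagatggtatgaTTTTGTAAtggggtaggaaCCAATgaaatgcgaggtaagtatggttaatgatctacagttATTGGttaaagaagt
Gc (chr5:89457899-89458148, minus strand): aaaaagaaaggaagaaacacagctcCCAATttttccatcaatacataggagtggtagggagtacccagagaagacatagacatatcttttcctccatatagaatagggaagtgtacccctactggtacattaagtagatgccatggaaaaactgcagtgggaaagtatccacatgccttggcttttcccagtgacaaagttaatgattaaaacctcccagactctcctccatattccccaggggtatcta
Itih4 (chr14:30886226-30886475, plus strand): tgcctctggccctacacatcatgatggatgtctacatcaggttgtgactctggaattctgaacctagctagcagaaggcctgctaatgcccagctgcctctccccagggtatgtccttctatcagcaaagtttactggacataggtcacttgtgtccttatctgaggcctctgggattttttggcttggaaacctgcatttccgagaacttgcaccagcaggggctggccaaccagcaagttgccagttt
In the Alb sequence CCAAT matches began 56 and 15 bases before the start, and 4 matches to TTNNGNAA lay between 223 and 68 bases before it. Gc held 1 CCAAT match, and Itih4 held no match to any of the 3 motifs in this window. RefSeq start sites were found for all 10 genes (12 windows). TTNNGNAA was present in 8 of the 12 windows against 36.8% of all 32851 windows of that length, CCAAT in 5 against 33.8%, and TATAAA in 2 against 12.4%. The windows of Ambp, Itih2 and Itih3, and 1 of the 2 windows each of Rbp4 and Fetub, lie in part or whole inside the gene as deposited or in RefSeq, so these 5 do not describe the bases before the outermost start. A match describes the letters only. In Fetub a CCAAT and a TTNNGNAA match overlap, and in the 3 sequences shown no matches do.

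Levels are given as CPM (read counts scaled to the total of a library), and changes as log2 fold changes of Acss2-KO over WT on the log2(CPM + 1) scale, tested with limma. P-values were adjusted over the 9355 genes by the Benjamini-Hochberg method, and those under 0.05 were called. Acss2 itself was at 74.0, 81.0 and 73.5 CPM in WT and at 1.37, 3.56 and 2.35 CPM in Acss2-KO, as the labels have it. Estimated depth was 21.8 to 30.8 M reads per library. The libraries differed widely in markers of pancreatic acinar cells, of which 7 of 8 were in the table. The summed level of these markers was 41.4, 6216 and 308 CPM in WT and 1353, 23.3 and 546 CPM in Acss2-KO, highest in WT2 and KO1. WT3 and KO3 also lay above WT1 and KO2, so leaving out WT2 and KO1 does not remove these markers. Hepatocyte markers (10 of 10 in the table) summed to 31438 to 32677 CPM in WT and to 40183 to 43483 CPM in Acss2-KO, without overlap. Of these markers 2 rose and 3 fell, and Cps1, a urea cycle enzyme gene named after its value was seen, went from 2508 ± 390 to 11684 ± 1252 CPM (limma adjusted p = 0.00039). Without Cps1 the summed levels of the other hepatocyte markers overlapped between the genotypes. The median log2 fold change of the hepatocyte markers was -0.03. Kupffer cell and leukocyte markers (8 of 11 in the table) summed to 170 to 505 CPM in WT and 66.3 to 133 CPM in Acss2-KO, and erythroid markers (5 of 8) to 162 to 280 CPM and 41.2 to 67.0 CPM. The summed levels of endothelial and stellate cell markers overlapped between the genotypes, and only 2 of 7 cholangiocyte markers (Spp1 and Sox9) were in the table. The part of other cell types in the results was not tested, and in whole liver fewer cells of a type and less RNA per cell cannot be told apart.

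The 10 genes together held 8.78%, 8.94% and 10.5% of CPM in WT and 11.0%, 10.6% and 10.1% in Acss2-KO. Most of that was Alb, at 6.24 to 8.12% in WT and 7.48 to 8.18% in Acss2-KO. Only Itih3 rose and only Gc and Ambp fell, and 7 of the 10 did not pass the test. The share called, 3 of 10, is to be read against 36.5% of all genes tested (1 of 10 higher against 13.4%, and 2 of 10 lower against 23.1%). The median log2 fold change of the 10 genes was 0.13, and that of all genes tested was -0.12. The 2 genotypes did not overlap for 5 members (Rbp4, Ahsg and Itih3 higher with Acss2 missing, Gc and Ambp lower), against 52.9% of all genes tested (20.1% higher and 32.8% lower). Median-of-ratios scaling moved the median of all genes from -0.12 to 0.01 and the share of calls that were higher from 36.7% to 51.0%. On that scale Itih3 was at 1.24, Ambp at -0.61 and Gc at -0.57, and no member changed sign under any of the 4 scalings tried, apart from Alb at 0 with quantile scaling.

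**Figure D1:**
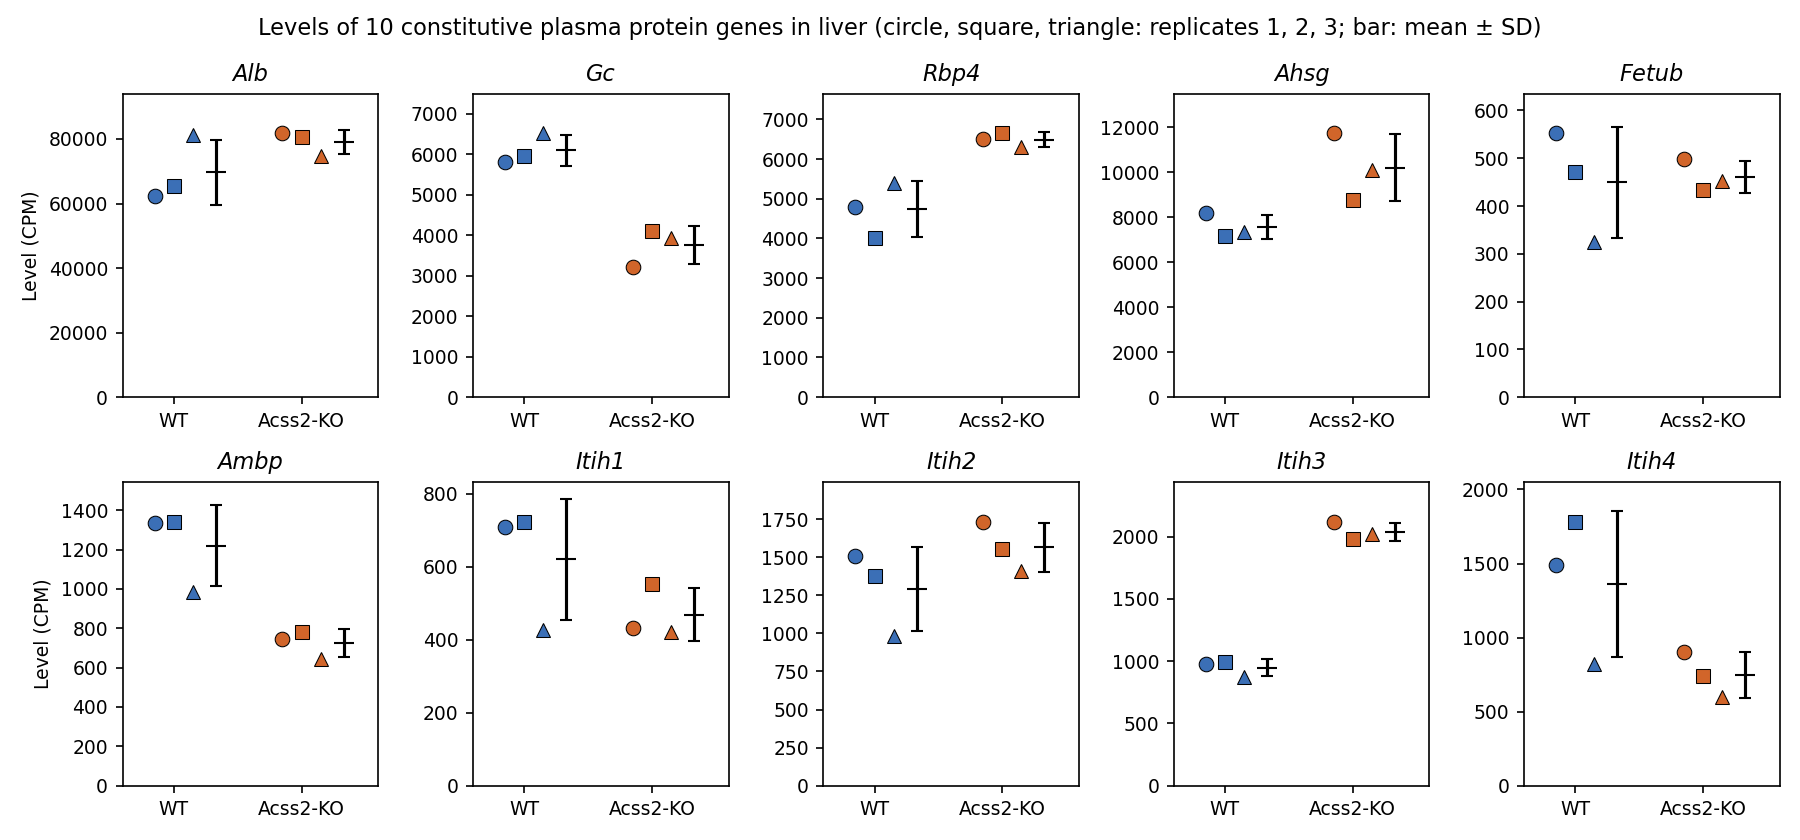
Level of each gene in CPM (y axis from 0, own scale per panel) in the 3 WT and 3 Acss2-KO libraries; circles, squares and triangles are replicates 1, 2 and 3, and the bar is the mean ± SD. Itih3 lies between 873 and 996 CPM in WT and between 1978 and 2120 CPM in Acss2-KO, while Alb, Fetub, Itih1, Itih2 and Itih4 overlap.

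**Figure D2:**
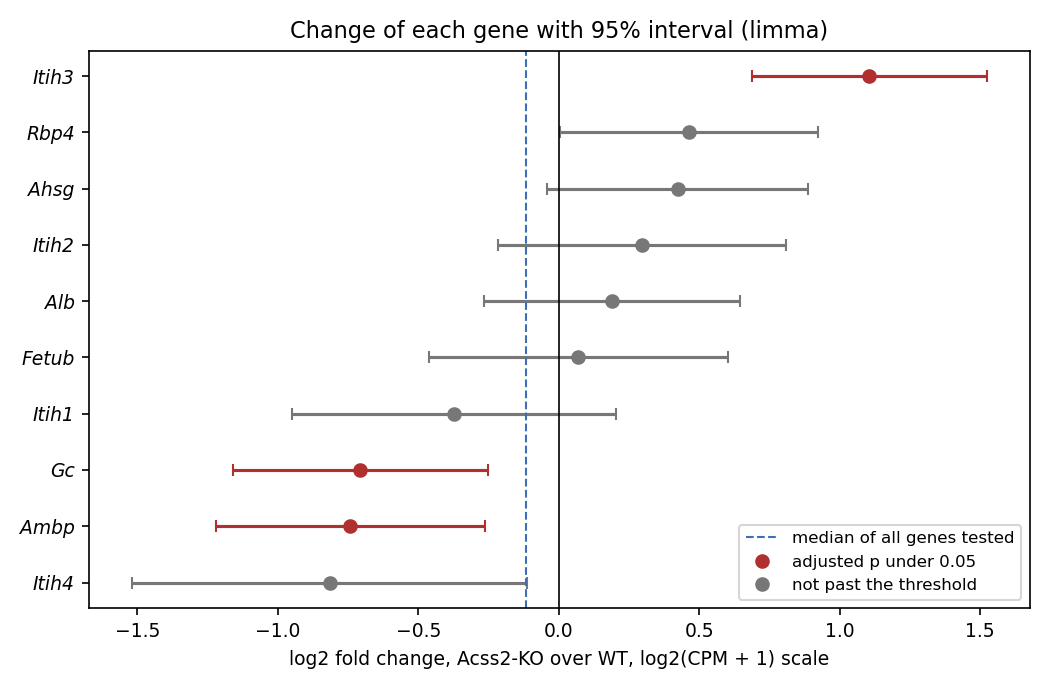
Log2 fold change of each gene (x axis, Acss2-KO over WT, log2(CPM + 1) scale) with its 95% interval from limma; red points passed the adjusted threshold of 0.05, grey points did not, and the dashed line is the median of all genes tested. Itih3 (1.11), Gc (-0.71) and Ambp (-0.74) are the red points.

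Among the carriers, Gc fell while Alb and Rbp4 did not pass the test. Alb (ENSMUSG00000029368, chromosome 5, 90460897 to 90476602) was at 62432, 65536 and 81245 CPM in WT and at 81811, 80684 and 74761 CPM in Acss2-KO. It was the most abundant transcript of every library, and WT3 reached the Acss2-KO values. The log2 fold change was 0.19 (SE 0.20, 95% interval -0.27 to 0.65, limma adjusted p = 0.48). Since Alb ranked first in each library, quantile scaling sets its change to 0 by construction.

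Gc (ENSMUSG00000035540, chromosome 5, 89417522 to 89457898) was at 5793, 5955 and 6517 CPM in WT and at 3214, 4096 and 3929 CPM in Acss2-KO. Each Acss2-KO library lay below each WT library, and the means were 6088 ± 380 and 3746 ± 469 CPM (SD, n = 3 each). The fall was 1.63-fold (log2 fold change -0.71, SE 0.20, limma adjusted p = 0.024). Leaving out any 1 library kept the log2 value between -0.77 and -0.60, but Gc no longer passed when WT1 (limma adjusted p = 0.067), WT2 (0.085), KO1 (0.075) or KO3 (0.081) was left out. Nor did it pass with median-of-ratios (0.053) or trimmed-mean scaling (0.056), or with WT2 and KO1, high in acinar markers, left out together (-0.61, adjusted p = 0.24).

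Rbp4 (chromosome 19, 38116620 to 38125321) was at 4804, 4012 and 5405 CPM in WT and at 6517, 6654 and 6295 CPM in Acss2-KO. All 3 Acss2-KO values lay above the WT values and close to each other, with a coefficient of variation of 2.79% against 14.7% in WT. The log2 fold change of 0.46 (SE 0.20, 95% interval 0.0051 to 0.92) did not pass (limma adjusted p = 0.10), and it passed without WT3 (0.56, adjusted p = 0.039). Its plasma partner Ttr was at 4300, 4211 and 4270 CPM in WT and 1003, 1710 and 1067 CPM in Acss2-KO and fell (log2 fold change -1.80, SE 0.24, limma adjusted p = 0.0015).

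The ratio of Rbp4 to Ttr within a library does not depend on the library total. It was 1.12, 0.953 and 1.27 in WT and 6.50, 3.89 and 5.90 in Acss2-KO. The ratio was thus 4.80 times higher in Acss2-KO, with no overlap (exact two-sided permutation p = 0.10, the smallest that 3 against 3 libraries allow, adjusted p = 0.12 over 6 ratios). The ratio of Gc to Alb was 0.0928, 0.0909 and 0.0802 in WT and 0.0393, 0.0508 and 0.0526 in Acss2-KO, 1.86 times lower (exact two-sided permutation p = 0.10, adjusted p = 0.12). These ratios are of CPM and not per length, so they compare libraries and not the 2 genes.

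**Figure D3:**
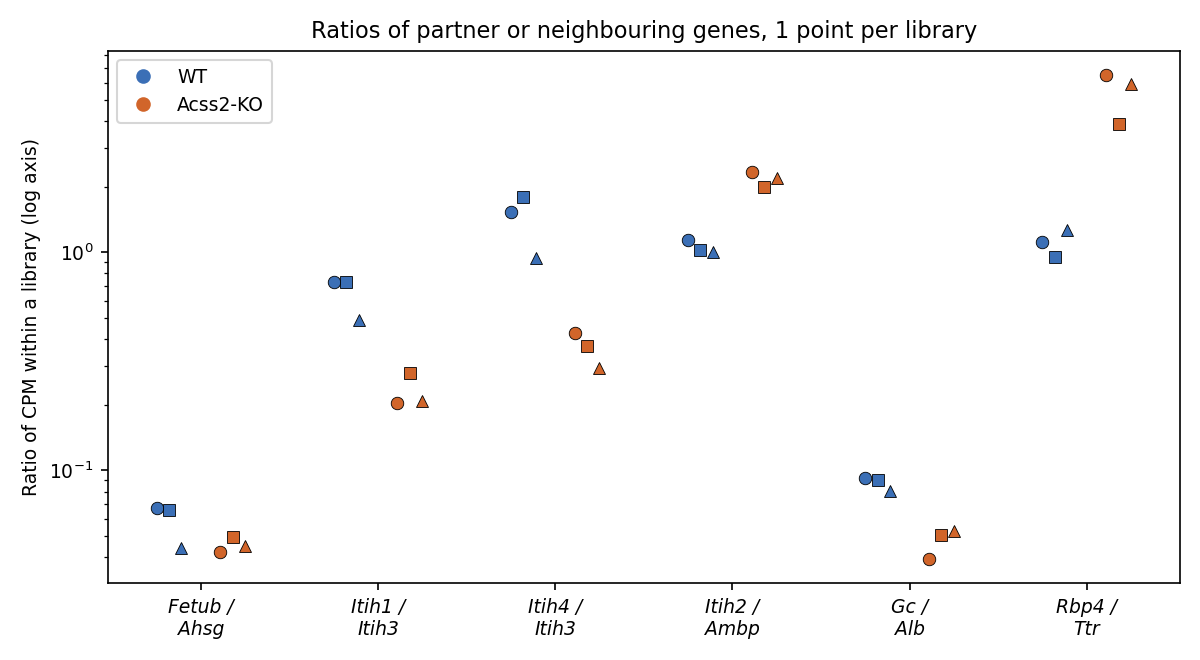
Ratios of CPM between partner or neighbouring genes within each library (y axis, log scale); blue points are WT, orange points Acss2-KO, and circles, squares and triangles are replicates 1, 2 and 3. The Rbp4 to Ttr ratio lies at 0.953 to 1.27 in WT and at 3.89 to 6.50 in Acss2-KO, and the Fetub to Ahsg ratio overlaps.

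Neither fetuin passed the test. Ahsg (chromosome 16, 22892042 to 22899438) was at 8192, 7181 and 7332 CPM in WT and at 11747, 8780 and 10086 CPM in Acss2-KO. The Acss2-KO libraries all lay above WT and varied more (14.6% against 7.2% as coefficients of variation). The log2 fold change was 0.42 (SE 0.20, 95% interval -0.041 to 0.89, limma adjusted p = 0.13). RefSeq places the gene model Gm30505 over Ahsg, and the counting is not stated to use strand, so reads of the 2 cannot be told apart. Fetub (chromosome 16, 22918382 to 22939766) was at 553, 471 and 324 CPM in WT and at 498, 434 and 452 CPM in Acss2-KO. The Acss2-KO values lay within the WT range, with a log2 fold change of 0.07 (SE 0.23, 95% interval -0.46 to 0.60, limma adjusted p = 0.84) whose sign turned without WT3 (-0.15). The Fetub to Ahsg ratio was 0.0675, 0.0656 and 0.0442 in WT and 0.0424, 0.0494 and 0.0448 in Acss2-KO, which overlap (exact two-sided permutation p = 0.30).

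Of the genes for chains of inter-alpha-inhibitor, the light chain precursor gene Ambp fell and the heavy chain gene Itih3 rose. Itih1 and Itih2 did not pass the test, nor did Itih4, which lacks the link. Ambp (ENSMUSG00000028356, chromosome 4, 63143275 to 63154799) was at 1333, 1342 and 982 CPM in WT and at 744, 781 and 644 CPM in Acss2-KO. The groups did not overlap, with means of 1219 ± 205 and 723 ± 71.3 CPM (SD, n = 3 each). The log2 fold change was -0.74 (SE 0.21, limma adjusted p = 0.025). Ambp no longer passed when WT1 (adjusted p = 0.095), WT2 (0.10) or KO3 (0.11) was left out, or WT2 and KO1 together (-0.69, adjusted p = 0.15).

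Itih3 (ENSMUSG00000006522, chromosome 14, 30908573 to 30923760) was at 976, 996 and 873 CPM in WT and at 2120, 1978 and 2020 CPM in Acss2-KO. The 2 groups were tight and far apart, with means of 948 ± 65.8 and 2039 ± 73.0 CPM (SD, n = 3 each). The rise of Itih3 was 2.15-fold (log2 fold change 1.11, SE 0.18, 95% interval 0.69 to 1.52, limma adjusted p = 0.0034). It passed under all 20 settings tried, with values between 1.05 and 1.25 and adjusted p-values between 0.0022 and 0.022. When WT2 and KO1 were left out the change was 1.11 as well.

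Itih4 (chromosome 14, 30886476 to 30901981) was at 1489, 1783 and 820 CPM in WT and at 904, 739 and 596 CPM in Acss2-KO. WT3 lay among the Acss2-KO libraries, and the coefficient of variation in WT (36.2%) was the largest of the 10 genes. The log2 fold change was -0.82 (SE 0.31, limma adjusted p = 0.067), and it was -1.15 without WT3 (adjusted p = 0.020). Itih1 (chromosome 14, 30929180 to 30943289) showed the same layout, at 709, 724 and 428 CPM in WT and 434, 553 and 422 CPM in Acss2-KO. Its log2 fold change was -0.37 (SE 0.26, 95% interval -0.95 to 0.21, limma adjusted p = 0.27), and -0.62 without WT3 (adjusted p = 0.046). Itih2 (chromosome 2, 10094593 to 10131396) was at 1510, 1380 and 982 CPM in WT and at 1734, 1552 and 1409 CPM in Acss2-KO. Again WT3 was the lowest library, and the change of 0.30 did not pass (SE 0.23, 95% interval -0.22 to 0.81, limma adjusted p = 0.33).

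WT3 was the lowest of the WT libraries for 6 of the 10 genes (Fetub, Ambp, Itih1, Itih2, Itih3 and Itih4) and the highest for 3 (Alb, Gc and Rbp4). Over all genes tested it was the lowest WT library for 51.1% and the highest for 30.2%. Without it, 6 of the 10 genes passed the test, against 3 with all libraries. The 6 were Rbp4 and Itih3, higher, and Gc, Ambp, Itih1 and Itih4, lower. Over the 9355 genes tested, 914 were then higher and 2006 lower, against 1252 and 2161 with all libraries.

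Within libraries Itih1 and Itih4 shifted against Itih3, and Itih2 against Ambp, by more than the spread between libraries. The Itih1 to Itih3 ratio was 0.727, 0.727 and 0.490 in WT and 0.204, 0.279 and 0.209 in Acss2-KO. The Itih4 to Itih3 ratio was 1.53, 1.79 and 0.940 in WT and 0.426, 0.374 and 0.295 in Acss2-KO, 3.79 times lower. The ratio of Itih2 to Ambp, a heavy chain to the light chain precursor, was 1.13, 1.03 and 1 in WT and 2.33, 1.99 and 2.19 in Acss2-KO. WT3, which stood apart in the levels of Itih2 and Ambp, did not stand apart in their ratio. None of these 3 ratios overlapped between the genotypes, and each reached the smallest exact two-sided permutation p possible (0.10, adjusted p = 0.12 over 6 ratios).

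Per kb of exon (GENCODE vM1 exons, merged), the order of the mean WT levels was Alb (34135 CPM per kb), Ahsg (5135), Rbp4 (3655), Gc (3654), Ambp (865), Itih4 (411), Itih2 (387), Itih3 (261), Fetub (235) and Itih1 (188). Rbp4 and Gc did not differ beyond their spread in WT, and the WT ranges also overlapped for Itih4 and Itih2, Itih3 and Fetub, and Fetub and Itih1. Those of Itih2 and Itih3 did not overlap, while the WT range of Itih4 (247 to 537 CPM per kb) also overlapped those of Itih3 and Fetub. In Acss2-KO the mean of Itih3 (561 ± 20.1 CPM per kb, SD, n = 3) came next to that of Ambp (513 ± 50.6), with overlapping libraries (544 to 583 and 457 to 555). Rbp4 (5003 ± 140) and Gc (2249 ± 281) no longer overlapped.

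Itih4, Itih3 and Itih1 lie in a row on chromosome 14, their lower coordinates 22.1 and 42.7 kb from that of Itih4. Of the 3 only Itih3 rose. Of 7 other genes tested within 100 kb of any of the 3, Gnl3, a nucleolar GTP-binding protein gene, rose (32.6 ± 5.38 to 64.8 ± 13.0 CPM, log2 fold change 0.96, limma adjusted p = 0.0087, and 0.053 when WT2 and KO1 were left out). The transcript of Snord69 lies within Gnl3. Mustn1 (-0.61, adjusted p = 0.035) and Glt8d1 (-0.72, adjusted p = 0.029), both under 10 CPM, fell, and neither passed under any of the 4 scalings or on leaving out most single libraries (adjusted p from 0.051 to 0.17). The other 4 genes tested there (Nek4, Pbrm1, Spcs1 and Tmem110) did not pass. On chromosome 16, Ahsg and Fetub are followed by Hrg, Kng2 and Kng1, plasma proteins of the same superfamily. None of these 3 passed: log2 fold changes were 0.16 for Hrg, -0.03 for Kng2 and -0.49 for Kng1 (limma adjusted p = 0.63, 0.94 and 0.071), and Kng1 passed without WT3 (-0.58, adjusted p = 0.030) and with ordinary empirical Bayes (0.042). On the other side of Ahsg, the ER cochaperone gene Dnajb11 rose (0.81, adjusted p = 0.0088, and 0.050 without KO3) and Tbccd1 fell (-1.18, adjusted p = 0.0093). Afm encodes the albumin relative afamin, which carries vitamin E, and lies 58.0 kb from Alb. Its level was 135 ± 14.9 CPM in WT and 22.1 ± 4.52 CPM in Acss2-KO (log2 fold change -2.57, SE 0.19, limma adjusted p = 0.00016). Col27a1, a collagen gene 70.7 kb from Ambp, was at 24.3 ± 7.63 CPM in WT and 2.60 ± 1.39 CPM in Acss2-KO, a fall that passed (limma adjusted p = 0.00072).

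**Figure D4:**
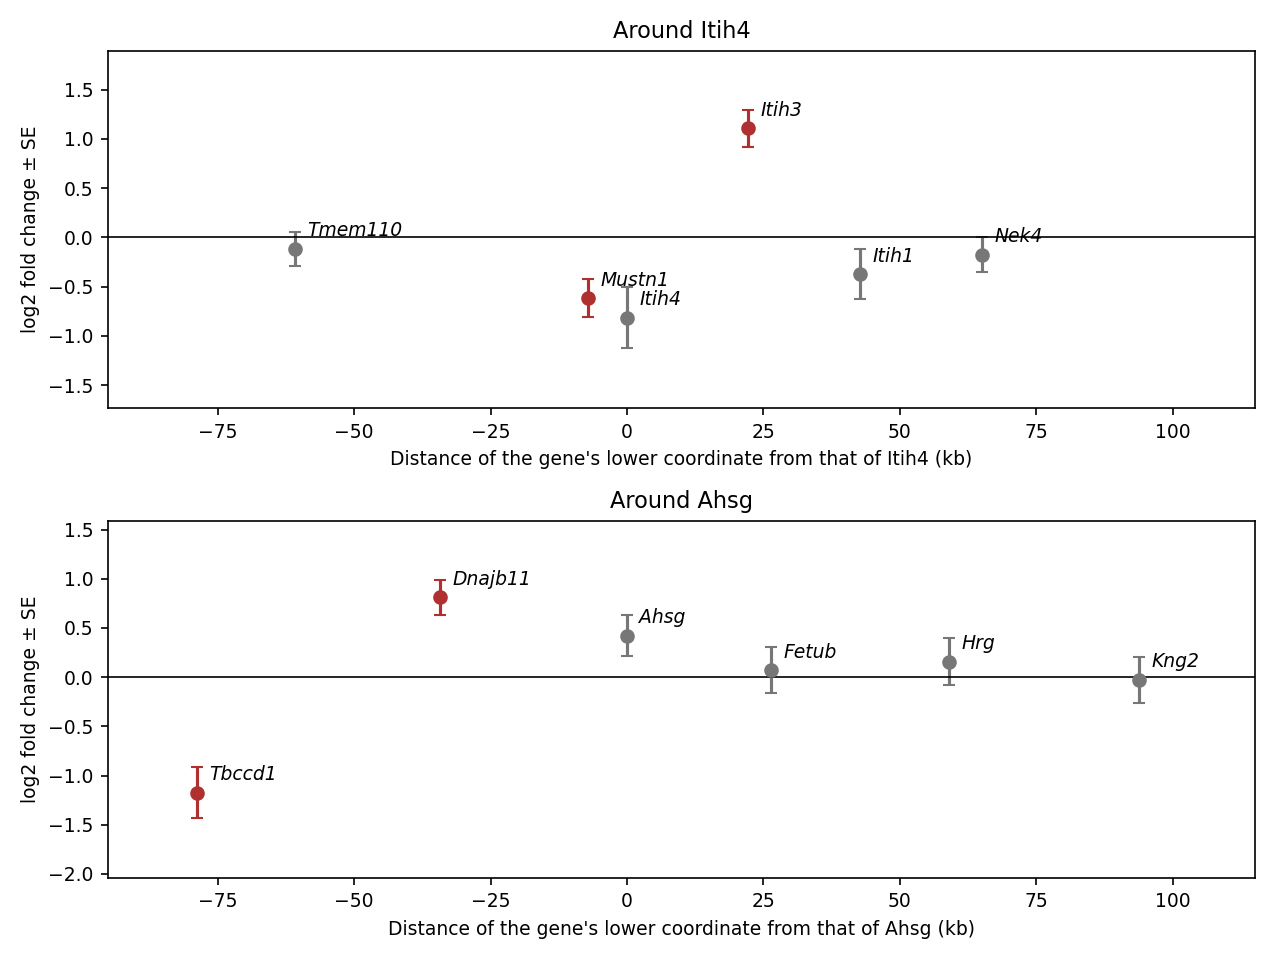
Log2 fold change ± SE (y axis, Acss2-KO over WT) of the genes tested within 100 kb of Itih4 (top) and Ahsg (bottom), against the distance between the lower gene coordinates in kb (x axis); red points passed the adjusted threshold of 0.05. Itih3 (1.11) is above 0 and its neighbours Itih4 (-0.82) and Itih1 (-0.37) are below it.

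Of 33 genes of other constitutive plasma proteins tested, 12 fell and 1 rose (36.4% lower, against 23.1% of all genes tested), with a median log2 fold change of -0.51. Under the 4 scalings 11 to 13 fell and 1 rose. This list and those below were chosen with earlier results of these data known, so their shares only describe the genes listed. Ttr and Afm, given above, were among the 12 that fell. Of the 12, the hormone carriers Serpina7 and Serpina6 fell furthest. Serpina7, thyroxine-binding globulin, fell from 66.2 ± 14.3 to 2.26 ± 0.709 CPM. Serpina6, corticosteroid-binding globulin, fell from 210 ± 106 to 4.07 ± 2.58 CPM (log2 fold change -5.36, limma adjusted p = 0.0012, and 0.11 when WT2 and KO1 were left out). Trf, the iron carrier transferrin, which was chosen after its value was seen, fell from 742 ± 79.3 to 334 ± 37.3 CPM (limma adjusted p = 0.0035). The gene that rose was Serpina1e, an α1-antitrypsin gene with near-identical copies that can share reads (364 ± 154 to 1473 ± 753 CPM, adjusted p = 0.015), also named after its value was seen. Serpina1e no longer passed when WT1 (0.054), WT2 (0.056), KO3 (0.058) or WT2 and KO1 together (0.062) were left out.

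The other genes of the pathways were few, and their counts are to be read against 13.4% higher and 23.1% lower over all genes tested. Of 5 genes of retinol carriage and storage tested, 2 fell and none rose: Ttr and Lrat, which makes retinyl esters in stellate cells (19.1 ± 4.41 to 4.64 ± 0.647 CPM, log2 fold change -1.81). Of 3 genes of vitamin D handling, Cyp2r1, the 25-hydroxylase, fell (7.99 ± 2.19 to 2.85 ± 1.04 CPM, limma adjusted p = 0.0093). Its mean over all libraries, 5.42 CPM, was close to the 5 CPM filter, and each Acss2-KO library lay below that. The log2 fold change of Cyp2r1 was -0.72 with a pseudocount of 5 and -1.52 with none. Of 8 genes of inter-alpha-inhibitor linkage and partners, 3 rose and none fell. These were Itih5, a heavy chain gene next to Itih2 (5.82 ± 0.215 to 14.0 ± 2.89 CPM, adjusted p = 0.0032), the protease gene Furin (305 ± 59.4 to 508 ± 87.9 CPM, adjusted p = 0.034) and Fam20b, a kinase of the glycosaminoglycan linker (21.2 ± 1.66 to 30.7 ± 2.92 CPM, adjusted p = 0.033). Furin and Fam20b did not pass on leaving out any 1 library other than KO2 (adjusted p between 0.054 and 0.12) or WT2 and KO1 together (0.14 and 0.20), nor Fam20b with the replicate number as a block (0.054). B3galt6 and Chsy1 of the same list were below the 5 CPM filter and not tested. Both were lower in Acss2-KO without overlap (3.59 ± 0.174 to 1.26 ± 0.342 CPM and 3.62 ± 0.821 to 1.87 ± 0.267 CPM). Of all genes tested, 32.8% were lower without overlap. B3galt6 in KO1 stood at 1 CPM, the lowest value deposited, so its level there may be lower. In albumin recycling and glycoprotein clearance 2 of 4 fell: B2m, the partner chain of the albumin receptor FcRn and of MHC class I (1339 ± 198 to 629 ± 129 CPM, adjusted p = 0.0072, and 0.072 when WT2 and KO1 were left out), and the asialoglycoprotein receptor gene Asgr2 (-0.60, adjusted p = 0.046, but 0.071 to 0.097 under the 4 scalings, 0.067 with the replicate number as a block, 0.10 to 0.16 when WT1, WT2, KO1 or KO3 was left out and 0.25 when WT2 and KO1 were). B2m is also high in leukocytes, whose summed markers were lower in Acss2-KO as given above, and their part was not tested. Fcgrt, the FcRn heavy chain, was at 245 ± 32.1 and 175 ± 18.9 CPM (adjusted p = 0.076, and 0.038 without WT3).

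Of 22 hepatocyte transcription factor genes tested, 12 fell and 2 rose (54.5% lower and 9.09% higher, against 23.1% and 13.4% of all genes tested), with a median log2 fold change of -0.57. Under the 4 scalings 10 or 11 fell and 2 rose. Since the list was chosen with earlier results of these data known, its share is no separate evidence of a broad fall. Foxa3 fell from 44.0 ± 0.610 to 12.7 ± 1.77 CPM, the CCAAT-binding subunit gene Nfya from 13.3 ± 1.86 to 4.13 ± 1.25 CPM, and Cebpa from 341 ± 59.8 to 164 ± 25.9 CPM (limma adjusted p between 0.00035 and 0.0067). Dbp fell from 87.5 ± 15.2 to 13.1 ± 8.43 CPM (log2 fold change -2.80, adjusted p = 0.0022, and 0.074 when WT2 and KO1 were left out). The pair that rose, named after their values were seen, also bind C/EBP or PAR bZip sites: Cebpd (13.8 ± 5.53 to 35.5 ± 7.31 CPM, adjusted p = 0.0072) and the repressor gene Nfil3 (15.8 ± 2.96 to 35.7 ± 9.25 CPM, adjusted p = 0.0073). Hnf4a (644 ± 74.6 and 813 ± 74.0 CPM, adjusted p = 0.20) did not pass. Alb, whose sequence above holds matches for several of these factors, had an interval that spans a fall of 0.27 to a rise of 0.65 on the log2 scale. Whether any of these factors acts on Alb here was not tested.

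Of 19 genes listed as positive acute phase proteins, which the liver makes in inflammation, 5 fell and 2 rose (26.3% lower and 10.5% higher, near the 23.1% and 13.4% of all genes tested). The median log2 fold change was -0.05, and it was above 0 under 3 of the 4 scalings (0.04 to 0.09) and -0.10 with quantile scaling. Hpx, the heme carrier hemopexin, fell (3939 ± 570 to 2201 ± 321 CPM, limma adjusted p = 0.017, but 0.063 without WT2, 0.091 without KO3 and 0.072 without WT2 and KO1 together). Hamp, the iron hormone hepcidin, rose (800 ± 121 to 1675 ± 515 CPM, adjusted p = 0.020, but 0.053 to 0.087 without WT1, WT2, KO1 or KO3 and 0.15 without WT2 and KO1 together). The list also holds Saa4, the constitutive member of the serum amyloid A family, which inflammation does not induce in the manner of Saa1 and Saa2, and which fell (208 ± 23.7 to 13.0 ± 7.72 CPM, log2 fold change -4.03, adjusted p = 0.00025). In the secretory pathway, through which all 10 proteins leave the cell, 3 of 40 genes rose and 4 fell (17.5% called, against 36.5% of all genes tested). This split depended on the scaling: under the 4 scalings 5 to 7 rose and 1 or 2 fell. The 4 that fell were Sar1a, Mcfd2, Mia2 and Mia3 (log2 fold changes from -0.77 to -0.65), the last 2 named after their values were seen. The ER chaperone genes Hspa5 (654 ± 81.8 to 1950 ± 720 CPM, adjusted p = 0.0067) and Hsp90b1 (570 ± 38.9 to 1531 ± 382 CPM, adjusted p = 0.0036) rose.

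**Figure D5:**
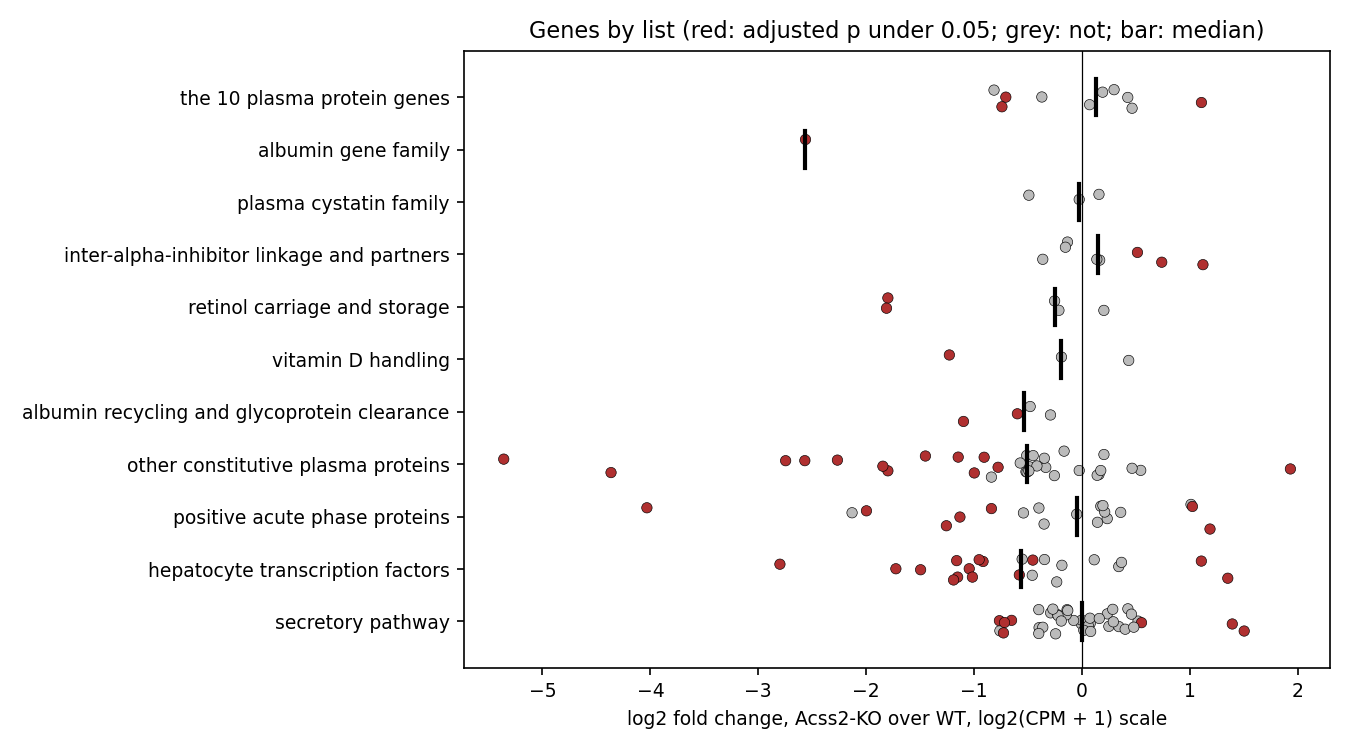
Log2 fold change of each gene tested (x axis, Acss2-KO over WT) for the 10 plasma protein genes and for each list of related genes, which leave the 10 out; red points passed the adjusted threshold of 0.05 and the black bar is the median of the row. The row of the 10 genes has its median at 0.13, and that of other constitutive plasma proteins at -0.51.

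The 3 genes whose levels were most like those of Alb over the 6 libraries were Serpina3k (Pearson r = 0.99), 1110059G10Rik (0.98) and Apoa1 (0.96), a description over libraries that differ in genotype and depth. Serpina3k, a serpin gene of a cluster with close copies, was at 4360, 4939 and 10085 CPM in WT and 9947, 8599 and 7858 CPM in Acss2-KO, with WT3 the highest. Apoa1, the main HDL protein, was at 8659, 8540 and 13034 CPM in WT and 14972, 13308 and 12678 CPM in Acss2-KO. Like Alb, neither passed the test with all libraries (limma adjusted p = 0.21 and 0.15), and both passed without WT3 (0.92, adjusted p = 0.018, and 0.66, adjusted p = 0.025), where Alb was at 0.30 (adjusted p = 0.11). Both genes were chosen for their likeness to Alb in these same libraries, so their values are no separate evidence on Alb.

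The authors' deposited table gives its own comparison of the 2 genotypes. In it Itih3 has a log2 fold change of 1.26 (adjusted p = 0.0033) and is the only one of the 10 genes past 0.05. The authors' deposited table lists Gc at -0.55 (adjusted p = 0.27) and Ambp at -0.60 (adjusted p = 0.22), and the other 7 genes have adjusted p-values from 0.13 to 0.74 there.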

How the data were processed

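Liver RNA of 3 WT and 3 Acss2-KO libraries was sequenced from TruSeq libraries, per the labels' protocols. Per the submitters' processing notes, Bowtie 0.12.2 and mm8 were involved, in a role not stated. As deposited, each library has 1 column of log2 CPM with 2 decimals, and values under 1 CPM stand at 0. On the linear scale the columns sum to 997061 to 997856. The authors also deposited a comparison with log2 changes, p-values and FDR values. The sources used here name no tool for it. Coordinates are as deposited and were taken as GRCm38 (median distance of 8 bp to RefSeq starts over 11623 genes). The counter, its strand setting and the annotation are likewise not given. Depth was estimated from the steps between low values, 5 CPM being 109 to 154 reads.

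Values were turned into CPM. The test was limma (version 3.58.1, with statmod 1.5.0, under R 4.3.3) on log2(CPM + 1), for genes whose mean reached 5 CPM, with moderated variances (robust, with a mean trend) and no covariates. The count model that the design allowed for raw counts was not used. Ratios were tested by exact permutation. The fit was tested on simulated data. Named genes are the 10 members, Acss2, up to 4 genes of smallest p and 2 of highest level per list, genes within 100 kb of a member and the 3 most like Alb. Not every gene chosen is printed. The members and lists were chosen with earlier results of these data known. Alternatives were pseudocounts of 0.5, 5 and none, 4 scalings, totals without the 10 members, other filters, ordinary empirical Bayes, a replicate block and libraries left out.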

Additional observations from a re-analysis of the deposited data

How the results depend on the processing

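Itih3 passed under every setting tried. Members called lower numbered 1 with median-of-ratios or trimmed-mean scaling, where Gc was at -0.57 (limma adjusted p = 0.053 and 0.056), and 0 when WT2 and KO1 were left out together (Gc -0.61, Ambp -0.69). Leaving out 1 library at a time gave 0 to 4 members lower and 1 to 2 higher. The log2 values ranged from -0.77 to -0.60 for Gc, -0.89 to -0.66 for Ambp, -1.15 to -0.59 for Itih4, -0.62 to -0.24 for Itih1, 0.35 to 0.56 for Rbp4 and -0.15 to 0.24 for Fetub, whose sign turned without WT3. Over all genes, 1252 were higher and 2161 lower (36.7% of calls higher). This was 741 and 1112 at a minimum of 20 CPM (fewer genes tested), 702 and 1291 when WT2 and KO1 were left out, and 525 to 1616 and 1192 to 2381 on leaving out 1. The median of all genes, -0.12, was 0.01 with median-of-ratios scaling, where 51.0% of calls were higher. Hrg turned sign without WT3 (-0.022), and its values without 1 library ranged from -0.022 to 0.31. Kng2 turned with median-of-ratios (0.10), upper-quartile (0.067), trimmed-mean (0.11) and quantile scaling (0.12), and without WT1, KO2 or KO3, with a range without 1 library from -0.25 to 0.14. Deviations of same-numbered libraries correlated at -0.10, -0.14 and 0.09 across genes, and only WT3 and KO3 correlated best with their own number. With 3 libraries per group these values cannot exclude a pairing by replicate number. With the replicate block 1260 genes were higher and 2137 lower, and Itih4 passed (-0.82, adjusted p = 0.028). The ratios kept their direction without any 1 library and with pairing by replicate number. The cause of these changes was not tested. The members lie at 324 CPM or above in every library.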
